A study of Mus musculus with 24 samples.

Results

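Low-dose mugwort extract before LPS was compared with LPS alone in 10 lungs, 5 in each group, of the 24 lungs in the series. AEAA is an aqueous extract of Artemisia argyi, the Chinese mugwort, and LPS is bacterial lipopolysaccharide, which sets off acute inflammation when it reaches the airspaces. The members were chosen by their labels, as the 5 libraries of the low dose and the 5 libraries of LPS without extract, and no measured value entered the choice. Low-dose mice drank AEAA at 0.5 mg/mL for 28 days and received LPS at 5 mg/kg into the trachea on day 29. LPS mice received the same challenge without the extract. Both groups were wild-type C57BL/6 mice, 7 weeks old by their labels, and lungs were taken 8 h after the challenge. Of the other challenged mice, 5 drank 1 mg/mL, the mid dose, and 5 drank 1.5 mg/mL, the high dose, and a control group (n = 4) had saline by the protocol, although its characteristics list the LPS challenge. No mice drank AEAA without a later challenge, so what the drink alone does to lung transcripts and what it does to the LPS response cannot be told apart. The 10 libraries are labelled as separate biological replicates, but littermates, cages and processing dates are not given in the sources used here.

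The labels give male mice, but the transcript of the inactive X chromosome, Xist, was present in all 24 libraries at 25.82 to 95.49 TPM, and the Y-linked gene Ddx3y reached at most 0.02 TPM. The lung label was met: the type II cell surfactant gene Sftpc had 6564 to 34670 scaled TPM in low-dose lungs and 7862 to 24600 in LPS lungs. The type I cell marker Ager had 1377 to 2147 scaled TPM in low-dose lungs and 1215 to 2208 in LPS lungs. Values are TPM, a share of all transcripts corrected for transcript length, divided by a median-of-ratios factor for each library and called scaled TPM. Fold changes are differences of log2(scaled TPM + 1), low dose minus LPS, which understate the change of weakly expressed genes. The depth of the libraries is unknown, since no counts were used, and no counting interval can be given. In whole lung, fewer cells of a type and less RNA per cell cannot be told apart.

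Ribosomes are built from ribosomal RNA and a set of small proteins that cells make in near-equal amounts, and their transcripts are among the most abundant and shortest in any tissue. The respiratory chain of mitochondria joins complexes I to IV and the ATP synthase, complex V, from subunits encoded mainly in the nucleus and partly in the mitochondrial genome. In the lung, LPS is sensed by resident macrophages and the epithelium through TLR4, and the cytokines and chemokines that follow recruit neutrophils. Laminins are trimers that form the basement membrane under the epithelium and the endothelium.

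At the low dose 408 of 17823 genes passed an adjusted p of 0.05, which is 2.29% of the genes tested (limma, moderated test, Benjamini-Hochberg over all genes). Of these, 310 (1.74%) were higher and 98 (0.55%) lower than in LPS lungs. The increases had a median log2 fold change of 0.65 and the decreases of −0.45, and 27 increases and 7 decreases reached an absolute value of 1. All 5 low-dose libraries lay on one side of all 5 LPS libraries in 889 genes (4.99%), 555 higher (3.11%) and 334 lower (1.87%). The smallest adjusted p was 0.00884, and the calls depended on single libraries. Without 1 library the number of increases was 353 (LPS replicate 1), 286 (low-dose replicate 1), 185 (LPS replicate 3), 160 (low-dose replicate 4), 109 (low-dose replicate 5), 100 (LPS replicate 2), 94 (LPS replicate 5), 79 (low-dose replicate 2), 70 (low-dose replicate 3) or 63 (LPS replicate 4). The number of decreases was then 101 (LPS replicate 1), 63 (low-dose replicate 1), 43 (low-dose replicate 4), 34 (LPS replicate 2), 26 (LPS replicate 3), 22 (low-dose replicate 5), 11 (LPS replicate 5 or low-dose replicate 2) or 9 (LPS replicate 4 or low-dose replicate 3).

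Short transcripts were higher and long ones lower, which stands beside every result that follows. With lengths from GENCODE vM21 (principal transcripts, known for 92.1% of genes tested), the median was 704 nucleotides for the increases, 4822 for the decreases and 2571 for all genes tested. In the shortest of 10 length bins 174 genes were higher and 0 lower, and in the longest 1 was higher and 33 were lower. Each library's slope of log2 expression on log2 length averaged 0.00261 ± 0.0209 in low-dose libraries and 0.0914 ± 0.0413 in LPS libraries (SD, n = 5 each, two-sided exact permutation p = 0.0159, adjusted over 9 comparisons of library measures 0.0286). The slope was tested because short and long transcripts had moved apart in earlier results of these data. Its p-values, here and between doses, are therefore not independent support for the length trend. The slopes ran from −0.0149 to 0.0379 in low-dose libraries and from 0.0343 to 0.145 in LPS libraries, so that a single pair overlapped. After each library's trend with length was removed, 0 of 16407 genes passed, with 2217 genes at an unadjusted p under 0.05 and a smallest adjusted p of 0.0604 (limma). The median of the shortest bin was then −0.06, below that of the other bins, so that bin was lowered past the others. The same adjustment with the longest annotated transcript of each gene left 48 increases (0.293%) and 11 decreases (0.067%), of which 47 and 8 were among the calls above. The longest transcript overstates the length of many small genes, for example Cox6c, which has 3038 nucleotides by that measure and 606 by its principal transcript. Whether the length trend comes from the tissue or from library preparation was not tested.

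**Figure D1:**
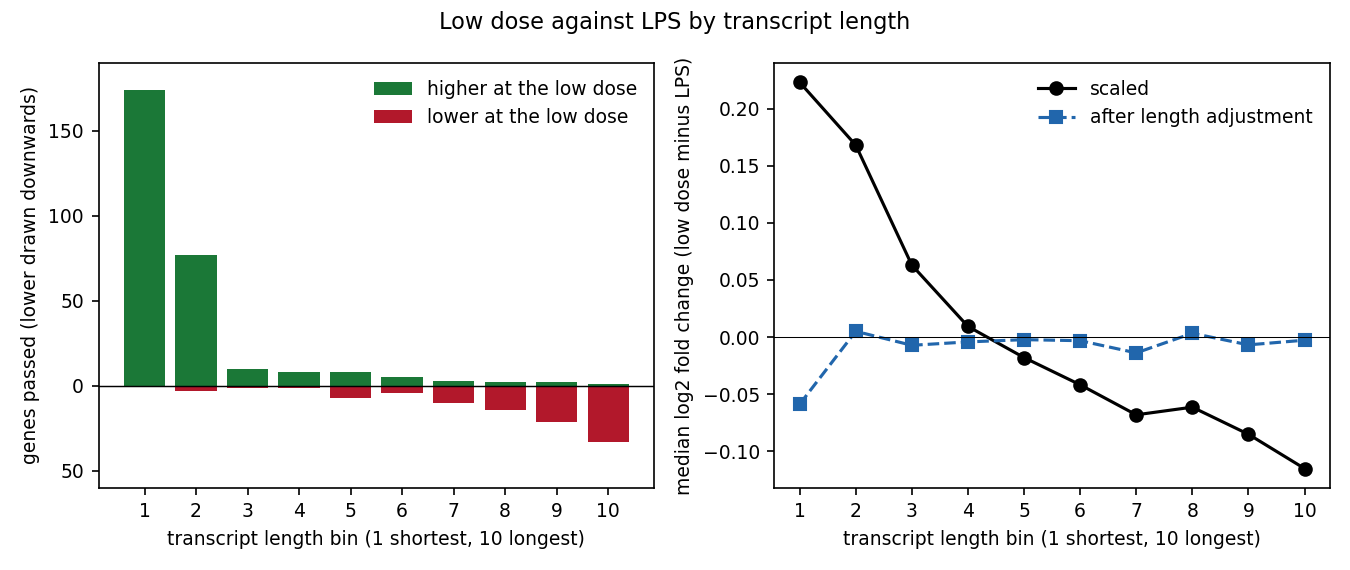
Left, the number of genes that passed between low-dose and LPS lungs in 10 bins of transcript length (higher upwards, lower downwards); right, the median log2 fold change per bin, scaled and after the length adjustment. Increases gather in the 2 shortest bins and decreases in the longest, where 33 genes were lower, and the median runs from 0.22 in bin 1 to −0.12 in bin 10 before the adjustment.

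Ribosomal protein transcripts were higher in low-dose lungs. The gene lists used from here on were chosen with earlier results of these data known. Of 78 measured genes of the cytosolic ribosome 47 rose and 0 fell, with a median log2 fold change of 0.51 against −0.01 over all genes tested. The shares over all genes tested were 1.74% higher and 0.55% lower. In the 2 shortest length bins 174 of 1640 and 77 of 1641 genes rose. Large subunit proteins rose in 25 of 46 cases and small subunit proteins in 22 of 32. For 61 of the 78 all low-dose libraries lay above all LPS libraries, against 3.11% of all genes tested. Their summed level was 89060 to 100300 scaled TPM in low-dose lungs, 58190 to 75610 in LPS lungs and 88220 to 109100 in control lungs. They took 9.72% ± 0.324 of all TPM in low-dose libraries and 7.92% ± 0.408 in LPS libraries (SD, n = 5 each). In control libraries the share was 7.15% ± 0.457 (SD, n = 4), below that of LPS libraries, whereas the scaled sums of control lungs lay above those of LPS lungs. The single gene Scgb1a1 took 28.25% ± 5.18 of all TPM in control libraries (SD, n = 4) and 4.88% ± 1.2 in LPS libraries (SD, n = 5). A larger share of 1 gene leaves less for all others, so shares of control and LPS libraries are not directly comparable.

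Rplp1, an acidic protein of the ribosomal stalk that binds elongation factors, had 3202, 3650, 3666, 4127 and 3815 scaled TPM in low-dose replicates 1 to 5, against 2475, 1399, 2062, 1671 and 1923 in LPS replicates 1 to 5. All low-dose libraries lay above all LPS libraries, and LPS replicate 1 was nearest. The log2 fold change was 0.98 (SE 0.18, limma adjusted p = 0.0112), and the control lungs held 3525 ± 457 scaled TPM (SD, n = 4). Rpl34, a large subunit protein, had 1465, 1606, 1500, 1624 and 1553 scaled TPM in low-dose lungs and 1060, 722, 924, 829 and 783 in LPS lungs. Its low-dose values were the more even of both groups, and the log2 fold change was 0.86 (SE 0.159, adjusted p = 0.0113, limma). The calls of Rplp1 and Rpl34 held when any 1 of the 10 libraries was left out. Rpl36 (log2 fold change 0.84) and Rpl39 (0.83), both of the large subunit, also rose, with calls lost on leaving out 4 and 6 of the 10 libraries. Rpl13a, likewise of the large subunit, had −0.17 (limma adjusted p = 0.315), and Rpl10, which sits near the peptidyl transferase centre, had −0.07 (limma adjusted p = 0.791), so neither passed. Rpl10 was chosen after its value was seen.

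The count of 47 was 16 without LPS replicate 4, 18 without LPS replicate 2 or low-dose replicate 3, 19 without low-dose replicate 2, 20 without LPS replicate 5, 23 without low-dose replicate 5 and 26 without low-dose replicate 4. It was 36 higher and 1 lower in the TPM as deposited. After the length adjustment the median was still 0.31 but 0 passed, and with the longest transcripts 10 passed.

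Subunits of the respiratory chain encoded in the nucleus moved in the same direction. Of 77 measured subunits 37 rose and 0 fell, with a median log2 fold change of 0.58. Among all genes tested 1.74% rose and 0.55% fell, and 174 of 1640 and 77 of 1641 rose in the 2 shortest length bins. By complex, 19 of 37 subunits rose in complex I (NADH dehydrogenase), 0 of 4 in complex II (succinate dehydrogenase), 4 of 9 in complex III, 6 of 10 in complex IV (cytochrome c oxidase) and 8 of 17 in complex V. Their summed level was 16270 to 20310 scaled TPM in low-dose lungs, 10530 to 16190 in LPS lungs and 18420 to 22110 in control lungs. Cox6c, a small subunit of complex IV, had 622, 682, 644, 661 and 731 scaled TPM in low-dose lungs, against 507, 278, 352, 304 and 306 in LPS lungs. The groups did not overlap, and LPS replicate 1 was again the highest of its group. The log2 fold change was 0.97 (SE 0.172, limma adjusted p = 0.0096), and the call held without any 1 library.

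Atp5f1e, the epsilon subunit of ATP synthase, had 578, 731, 716, 771 and 841 scaled TPM in low-dose lungs and 550, 269, 398, 295 and 384 in LPS lungs. Low-dose replicate 1 and LPS replicate 1 came close to each other. Its log2 fold change was 0.97 (SE 0.206, adjusted p = 0.0195, limma), with the call lost on leaving out any of 5 libraries. Cox7a2 of complex IV (0.94) and Ndufa1 of complex I (0.86) rose as well. Among longer subunits, 4 examples did not pass (limma). Atp5f1a, the alpha subunit of ATP synthase, had a log2 fold change of −0.03 (adjusted p = 0.919), Sdha, the flavoprotein of complex II, −0.04 (adjusted p = 0.825), Ndufs1, the largest complex I subunit, 0.06 (adjusted p = 0.75) and Uqcrc1, a core protein of complex III, −0.04 (adjusted p = 0.915). These 4 were chosen after their values were seen.

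Within both lists the fold change followed transcript length. The Spearman rho across members was −0.69 over 78 ribosomal proteins and −0.72 over 77 respiratory subunits, a description of genes that share libraries and are not independent. Subunits that rose had a median length of 606 nucleotides and the others 1168. Of the 67 subunits up to 1703 nucleotides 36 rose, and of the 10 longer ones 1 rose, with medians of 0.60 and −0.03. In the shortest length bin of all genes, the 99 members of the cytosolic and mitochondrial ribosome, respiratory chain and snRNP lists had a median of 0.66, against 0.19 for the 1541 other genes of that bin, and 68 of the 99 and 106 of the 1541 rose. The count of 37 was 6 without LPS replicate 4, 10 without low-dose replicate 2, 12 without low-dose replicate 3, 13 without LPS replicate 2 or low-dose replicate 5, 15 without LPS replicate 5, 19 without low-dose replicate 4 and 24 without LPS replicate 3. The median after the length adjustment was 0.31, where 0 passed, and with the longest transcripts 7 passed.

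**Figure D2:**
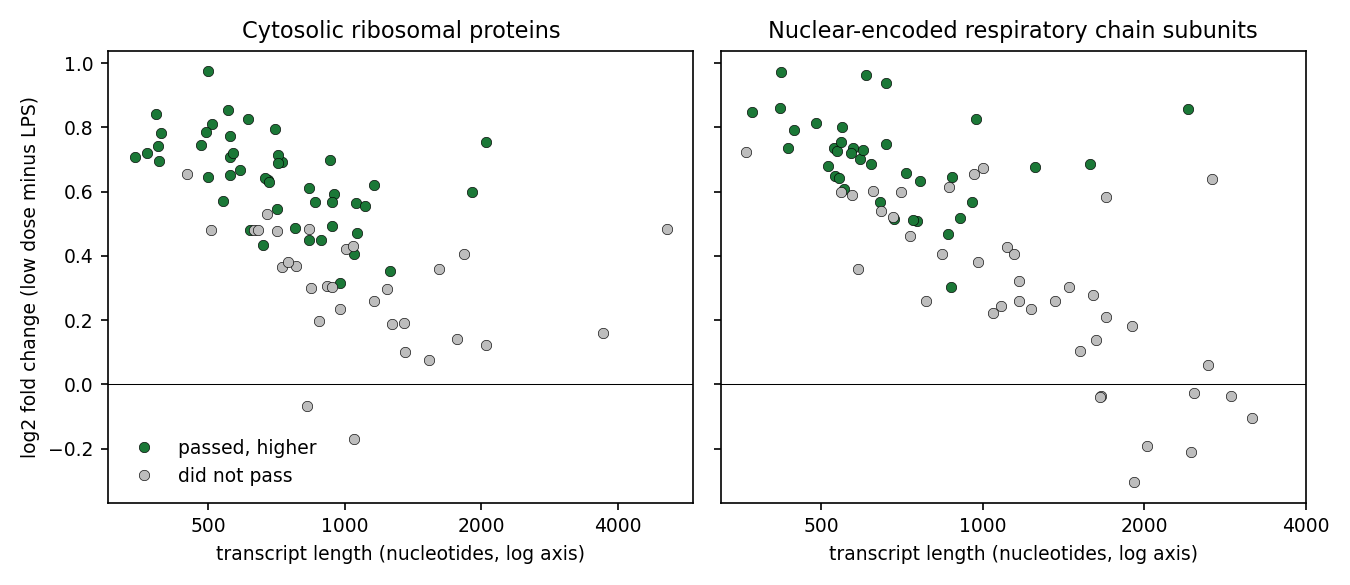
Log2 fold change (low dose minus LPS, scaled TPM) against transcript length on a log axis for 78 cytosolic ribosomal proteins and 77 nuclear-encoded respiratory chain subunits, with members that passed in green. The shortest members lie highest, and the 10 subunits over 1703 nucleotides have a median of −0.03.

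Rpl34 and Cox7a2 had the largest increases of these lists among members with a window of 300 bases in the RefSeq promoter table (GRCm38.p6). Genes of a single chromosome were left out of this choice. For each gene the first window listed was used, also in the shares below, and Rpl34 has 2 windows listed. Their windows from 250 bases before to 50 bases after the annotated start are shown because transcripts of both kinds moved together. Capitals mark the GC box GGGCGG, searched on both strands (CCGCCC on the other), which is held by 35.9% of the 27025 windows in the table. Each of both windows holds 1 match. An ETS core (CCGGAAG, or CTTCCGG on the other strand, in 9.12% of all windows) and a TATA box (TATAAA or TTTATA, in 14.2%) were searched too, and neither window holds one.
Rpl34, chr3:130730349-130730648, minus strand: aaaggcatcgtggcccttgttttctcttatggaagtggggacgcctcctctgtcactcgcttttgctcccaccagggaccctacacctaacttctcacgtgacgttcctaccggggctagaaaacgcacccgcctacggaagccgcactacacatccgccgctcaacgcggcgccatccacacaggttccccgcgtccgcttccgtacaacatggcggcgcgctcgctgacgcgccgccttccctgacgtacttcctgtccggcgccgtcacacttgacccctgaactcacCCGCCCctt
Cox7a2, chr9:79759804-79760103, minus strand: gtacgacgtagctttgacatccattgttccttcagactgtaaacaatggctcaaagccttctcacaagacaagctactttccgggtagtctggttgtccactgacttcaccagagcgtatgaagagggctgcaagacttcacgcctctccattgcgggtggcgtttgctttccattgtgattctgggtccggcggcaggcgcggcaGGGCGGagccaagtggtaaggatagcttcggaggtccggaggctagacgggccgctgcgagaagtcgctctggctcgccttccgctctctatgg

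Other components of gene expression and of mitochondria had fewer members that passed. Over all genes tested 1.74% rose, and in the 2 shortest length bins 174 of 1640 and 77 of 1641. Mitochondrial ribosomal proteins, which translate the subunits encoded in the mitochondrial genome, rose in 10 of 76 cases with a median of 0.27. Mrps36 had 59.6, 64.9, 64.0, 58.1 and 65.7 scaled TPM in low-dose lungs, against 48.3, 35.0, 37.1, 36.6 and 36.0 in LPS lungs. The 2 groups were apart, and the log2 fold change was 0.69 (SE 0.131, limma adjusted p = 0.0118) with a call that held without any 1 library. Mrps36 is listed with the mitochondrial ribosome by its name and also works as a component of the 2-oxoglutarate dehydrogenase complex. Mrpl52 (0.97), Mrps21 (0.75) and Mrpl14 (0.62) rose too. The count of 10 was 19 without LPS replicate 1, 6 without LPS replicate 3 and 2 to 5 without any of the others except low-dose replicate 1 (11).

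Among 23 snRNP and LSm proteins, which carry the small RNAs of the spliceosome or bind RNA ends, 5 rose, with a median of 0.42 and all 23 above 0. They included Lsm7 (0.85), Snrpe (0.78), Snrpd2 (0.77) and Lsm5 (0.75). The count of 5 was 0 without LPS replicate 2, LPS replicate 4, low-dose replicate 2 or low-dose replicate 3, 1 without LPS replicate 3, LPS replicate 5, low-dose replicate 4 or low-dose replicate 5, and 9 without LPS replicate 1. The proteasome, also made of many subunits, had 0 of 35 members that passed and a median of 0.18. Its transcripts were longer, with a median of 1541 nucleotides against 1161 for the snRNP and LSm list. Its 22 members up to 1703 nucleotides had a median of 0.25, and the 13 longer ones −0.02. Of 15 mitochondrially encoded genes 1 rose. This was mt-Nd4l, the shortest complex I subunit of that genome, with 1314 to 1708 scaled TPM in low-dose lungs and 840 to 1436 in LPS lungs. Both ranges overlapped, the log2 fold change was 0.65 (adjusted p = 0.0427, limma), and the call held on leaving out LPS replicate 1 alone. The library share of mitochondrially encoded transcripts was 5.45% ± 0.72 in low-dose and 5.77% ± 1.36 in LPS libraries (SD, n = 5 each).

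A residual of the ribosomal RNA that was depleted before sequencing moved with the groups. Rn18s-rs5, a sequence related to the small subunit ribosomal RNA, had 1310, 2194, 1749, 1590 and 1599 scaled TPM in low-dose lungs, against 1120, 694, 820, 696 and 877 in LPS lungs. All low-dose libraries were higher (log2 fold change 1.01, SE 0.152, limma adjusted p = 0.00884). Nuclear ribosomal RNA took 0.14% to 0.208% of TPM in low-dose libraries and 0.088% to 0.122% in LPS libraries. How far RNA quality or depletion took part in the results was not tested.

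**Figure D3:**
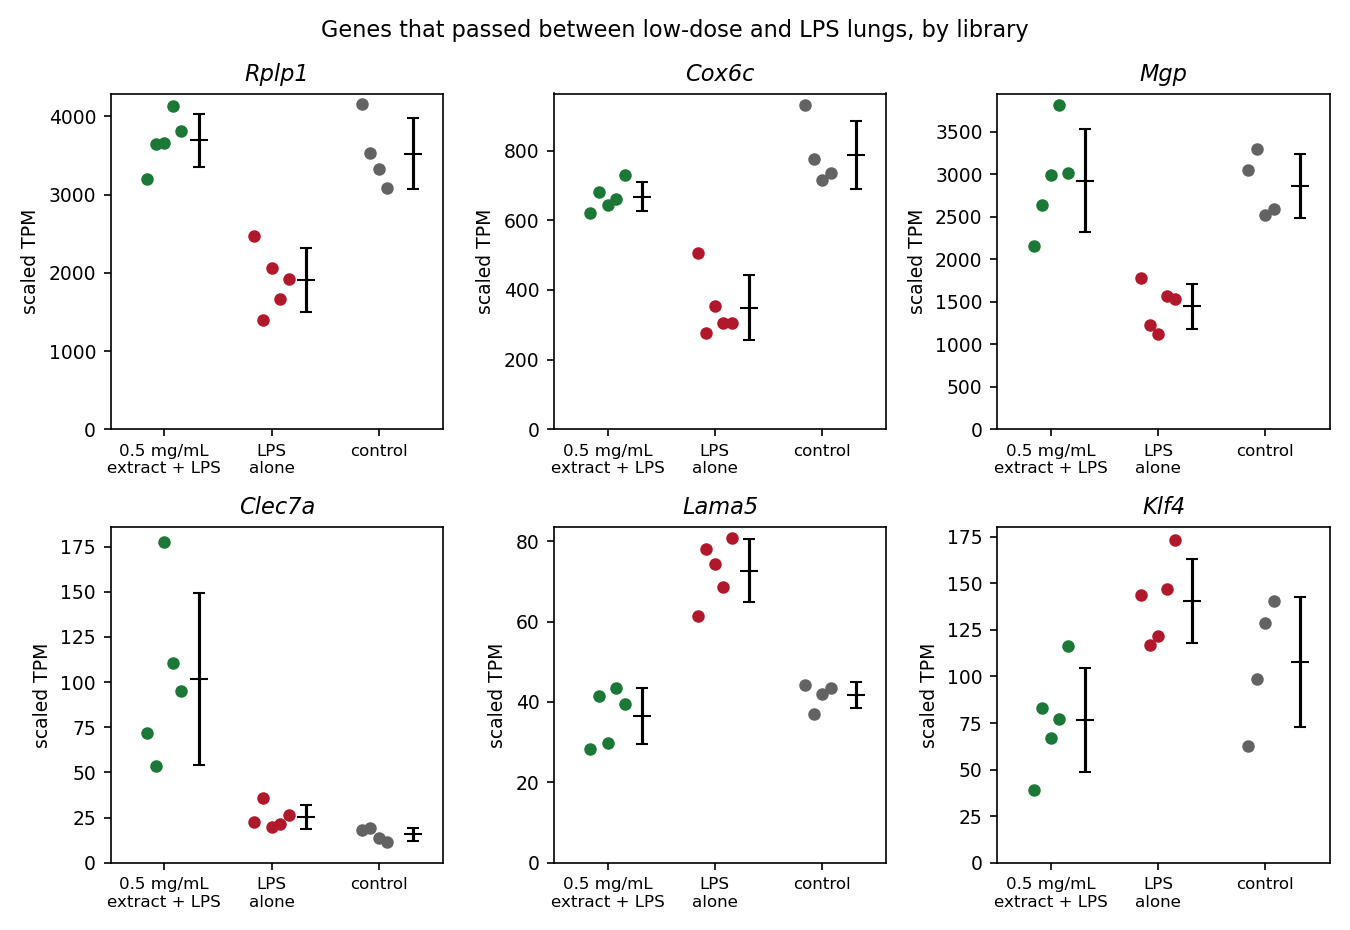
Scaled TPM of 6 genes in each library of low-dose, LPS and control lungs (points), with the mean and SD beside them. Rplp1, Cox6c, Mgp and Clec7a lie higher and Lama5 and Klf4 lower in all 5 low-dose lungs than in all 5 LPS lungs, and for Lama5 the low-dose lungs lie between 28.3 and 43.6.

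Outside these lists the largest increases included secreted and surface proteins of macrophages and stroma. Clec7a, the beta-glucan receptor Dectin-1 of myeloid cells, had 72.0, 53.7, 178, 111 and 95.1 scaled TPM in low-dose lungs, against 22.8, 36.0, 19.7, 21.6 and 26.6 in LPS lungs. The groups did not overlap, low-dose replicate 3 was highest, and the log2 fold change was 1.88 (SE 0.451, limma adjusted p = 0.0331). Control lungs had 15.7 ± 3.69 scaled TPM (SD, n = 4). Its call held only without LPS replicate 1 or low-dose replicate 1. Retnla, a secreted protein of alternatively activated macrophages and airway epithelium, had 818, 1350, 1606, 2032 and 1509 scaled TPM in low-dose lungs and 710, 572, 316, 596 and 482 in LPS lungs. Low-dose replicate 1 lay just above LPS replicate 1, and the log2 fold change was 1.44 (SE 0.36, adjusted p = 0.0398, limma), a call lost on leaving out 8 of the 10 libraries.

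Mgp, the matrix Gla protein that inhibits calcification and is made by fibroblasts and smooth muscle, had 2157, 2635, 2992, 3814 and 3010 scaled TPM in low-dose lungs, against 1783, 1227, 1125, 1563 and 1534 in LPS lungs. The groups were apart, the log2 fold change was 1.01 (SE 0.177, limma adjusted p = 0.00884), and the call held without any 1 library. Mgp was the 1 of 18 fibroblast markers that rose, against 1.74% of all genes tested, and the median of that list was −0.07. Lefty1, an inhibitor of Nodal signalling, had 5.29 to 7.73 scaled TPM in low-dose lungs and 1.75 to 3.76 in LPS lungs (log2 fold change 1.06, limma adjusted p = 0.0159), and the call was lost without LPS replicate 4. Wdr27, a WD repeat protein, had 7.005 to 18.34 in low-dose lungs and 3.46 to 6.66 in LPS lungs (log2 fold change 1.10, limma adjusted p = 0.023).

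The 12 largest increases were ranked without predicted genes, genes without a symbol and pseudogenes, some of which had larger values, such as the lncRNA Gm44709 (2.62). The remaining genes of the 12 were short transcripts. They were Cops9, a small subunit of the COP9 signalosome (log2 fold change 0.97), Tmsb10b, a beta-thymosin gene (1.40), Rps27rt, a retrotransposed copy of a ribosomal protein gene (1.06), and the noncoding Lrrc55os (1.50), which 2 LPS libraries list at 0. Rps27rt shares near-identical sequence with its parent gene, so its level is uncertain. The same holds for the largest increases among genes whose symbols end in -ps, which were Rps13-ps2, Rpl36-ps12, Ubb-ps (log2 fold change 1.48, annotated as a lncRNA) and Pin4-ps. Larger values among predicted pseudogenes included those of Gm9794 (5.05) and Gm10240 (3.46), which are named outside the rule. Rps13-ps2 had 180 to 231 scaled TPM in low-dose lungs and 19.5 to 148 in LPS lungs, and Rpl36-ps12 had 122 to 167 in low-dose lungs and 41.9 to 92.5 in LPS lungs. Pin4-ps had 7.36 to 25.8 scaled TPM in low-dose lungs, while 4 LPS libraries list it at 0 and LPS replicate 1 had 3.83.

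Laminin chains were among the decreases. Lama5, the alpha chain of the main laminin of adult lung basement membranes, had 28.3, 41.4, 29.7, 43.6 and 39.4 scaled TPM in low-dose lungs, against 61.5, 78.0, 74.4, 68.5 and 80.9 in LPS lungs. Every low-dose lung was below every LPS lung, and control lungs were at 41.7 ± 3.25 (SD, n = 4). The log2 fold change was −0.99 (SE 0.155, limma adjusted p = 0.00884), and the call held without any 1 library. After the length adjustment it was −0.84 (adjusted p = 0.0604), and with the longest transcripts it passed (adjusted p = 0.0342). Lamc1, the gamma chain that pairs with it, had 49.9 to 67.3 scaled TPM in low-dose lungs and 68.3 to 79.8 in LPS lungs, which did not overlap (log2 fold change −0.36, adjusted p = 0.0416, limma). The call of Lamc1 was lost on leaving out any 1 library.

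Of 24 laminin and basement membrane genes 2 fell, with a median of −0.28 and a median length of 6089 nucleotides. Over all genes tested 0.55% fell, and in the longest length bin 33 of 1641. Lamb2, the beta chain of the same trimers, had 37.5 to 51.0 scaled TPM in low-dose lungs and 52.6 to 78.8 in LPS lungs without passing (log2 fold change −0.49, adjusted p = 0.1). Lama3, a chain of the laminin that anchors epithelial cells, had −0.12 (adjusted p = 0.882), and Lama4, a chain of endothelial laminin, −0.07 (adjusted p = 0.825). These 3, and below Klf2, Cxcl2, Tnf, Clec4n, Clec4e, Clec4d and Cd3e, are named outside the rule for named genes and were chosen after their values were seen. None of the 24 collagen and elastic fibre genes passed, and their median was −0.05.

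The transcription factors Klf4 and Foxf1 were among the decreases, each with a call that was lost on leaving out 9 of the 10 libraries. Klf4, a Krüppel-like factor of endothelium and epithelium, had 39.1, 83.0, 67.1, 77.3 and 116 scaled TPM in low-dose lungs, against 144, 117, 122, 147 and 174 in LPS lungs. Low-dose replicate 5 came within 1 scaled TPM of LPS replicate 2, and control lungs overlapped both groups at 108 ± 34.9 (SD, n = 4). The log2 fold change was −0.94 (SE 0.24, limma adjusted p = 0.0427), and the call held only without low-dose replicate 5. Of 14 Klf genes 1 passed, against 2.29% of all genes tested, with a median of −0.28 and 3 above 0. Klf2, a flow-responsive endothelial factor, had 115 to 209 scaled TPM in low-dose lungs and 233 to 291 in LPS lungs and did not pass (log2 fold change −0.58, adjusted p = 0.0557). Foxf1, a factor of lung mesenchyme and capillary endothelium, had 86.0 to 107 scaled TPM in low-dose lungs and 125 to 221 in LPS lungs. Its log2 fold change was −0.70 (adjusted p = 0.0418, limma), a call that held only without LPS replicate 1.

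The promoter windows of the genes with the largest decrease in the laminin list and in the Klf list, Lama5 and Klf4, are shown for comparison with those above, from the same table. Capitals mark the same GC box on either strand. Each window holds 4 matches, overlapping ones counted, and neither holds the ETS core or the TATA box letters searched above.
Lama5, chr2:180225810-180226109, minus strand: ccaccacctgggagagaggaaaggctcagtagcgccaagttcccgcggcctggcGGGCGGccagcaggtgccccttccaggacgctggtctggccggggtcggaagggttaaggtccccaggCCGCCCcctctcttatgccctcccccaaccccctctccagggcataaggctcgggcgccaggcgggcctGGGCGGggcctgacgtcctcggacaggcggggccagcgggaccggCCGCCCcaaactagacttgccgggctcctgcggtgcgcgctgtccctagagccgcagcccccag
Klf4, chr4:55532426-55532725, minus strand: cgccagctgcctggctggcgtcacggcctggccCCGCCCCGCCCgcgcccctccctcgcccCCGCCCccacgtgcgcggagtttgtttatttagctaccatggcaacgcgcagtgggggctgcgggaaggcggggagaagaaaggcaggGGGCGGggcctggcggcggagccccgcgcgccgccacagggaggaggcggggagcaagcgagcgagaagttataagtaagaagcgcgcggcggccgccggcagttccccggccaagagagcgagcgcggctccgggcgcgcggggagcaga

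Most other decreases were in long transcripts of the cytoskeleton, cilia and protein turnover. Ubr4, a giant ubiquitin ligase, had 68.7, 73.5, 75.6, 75.3 and 63.3 scaled TPM in low-dose lungs, against 97.5, 121, 120, 130 and 118 in LPS lungs. The groups were apart, and the log2 fold change was −0.71 (SE 0.148, limma adjusted p = 0.0192), a call lost without LPS replicate 4 or low-dose replicate 5. Dync1h1, the heavy chain of cytoplasmic dynein, and Tacc2, a centrosome-associated protein, were the 2 of 23 centrosome and cytoskeleton genes that fell (log2 fold changes −0.58 and −0.90), with calls lost on leaving out 6 and 8 of the 10 libraries. The median length in that list was 8393 nucleotides, and its median fold change was −0.30. Of all genes tested 0.55% fell, and of the longest length bin 33 of 1641. Dnah11, an axonemal dynein of motile cilia, had 1.19 to 2.84 scaled TPM in low-dose lungs and 3.14 to 9.53 in LPS lungs (log2 fold change −1.03, limma adjusted p = 0.0485), and was the 1 of 19 cilia genes that fell. The call of Dnah11 held only without low-dose replicate 1.

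Pgpep1, a peptidase that removes pyroglutamate from peptides, had 9.01, 7.83, 8.75, 8.41 and 8.06 scaled TPM in low-dose lungs, against 13.5, 16.1, 14.3, 14.8 and 17.6 in LPS lungs. Both groups were narrow and did not overlap (log2 fold change −0.79, SE 0.138, limma adjusted p = 0.00884), and the call held without any 1 library. Bag3, a co-chaperone of Hsp70 in selective autophagy, fell by 0.50 on the log2 scale (adjusted p = 0.0169, limma). It was the 1 of 24 endoplasmic reticulum and heat shock genes that passed, against 2.29% of all genes tested. Abcc3, an exporter of organic anions, had 19.2 to 22.4 scaled TPM in low-dose lungs and 22.4 to 45.6 in LPS lungs, where LPS replicate 3 almost met the low-dose range (log2 fold change −0.72, adjusted p = 0.0264, limma). The 12 largest decreases without overlap between the groups, among genes with an established symbol, are completed by 4 genes. They were L1cam, a cell adhesion molecule (−0.74), and Sipa1l3, a regulator of Rap signalling (−0.69). The others were Cecr2, a chromatin remodelling factor (−0.68), and Golgb1, a Golgi tethering protein (−0.65). The calls of these 4 were lost on leaving out 8, 5, 9 and 8 of the 10 libraries. Predicted genes and genes without a symbol were left out of this ranking, and some of them had larger decreases, such as Gm15429 (−2.98) and Gm50475 (−1.21). Genes whose groups overlapped were left out too, such as Susd2 (−0.73, limma adjusted p = 0.0373).

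Cytokines and chemokines, which are known targets of LPS signalling, did not pass in either direction (limma, 0 of 23), although 22 of 23 had a fold change above 0 and their median was 1.44. Cxcl2, a neutrophil chemokine, had 0.598, 281, 334, 281 and 295 scaled TPM in low-dose lungs, against 241, 1.08, 40.1, 0.0712 and 162 in LPS lungs. Low-dose replicate 1 and LPS replicates 2 and 4 lay at or near the control level of 0.221 ± 0.114 (SD, n = 4), far from the other lungs of their groups. The log2 fold change of 2.36 had an SE of 2.11 (adjusted p = 0.625). Tnf, a first-wave cytokine, had 0.982, 30.4, 52.9, 51.0 and 58.5 scaled TPM in low-dose lungs and 20.8, 1.29, 15.7, 0.997 and 30.1 in LPS lungs. The same 3 libraries were low, and the difference did not pass (log2 fold change 1.53, adjusted p = 0.606). Il1b, the cytokine released by the inflammasome, had 29.3 to 586 scaled TPM in low-dose lungs and 14.1 to 274 in LPS lungs (log2 fold change 1.51, SE 1.41, adjusted p = 0.639). More LPS than low-dose lungs lay near the control level of Cxcl2. The part of this imbalance in the shared sign of the list and its median of 1.44 was not tested.

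None of the 13 inflammasome genes (median 0.74), 15 interferon-induced GTPases (1.03), 24 interferon-stimulated genes (0.51), 25 genes of TLR and NF-kB signalling (0.10), 14 class I (0.44) or 11 class II MHC genes (0.45) passed in limma. The GTPases summed to 356 to 3199 scaled TPM in low-dose lungs and 307 to 667 in LPS lungs, which overlapped. With spreads of this size between lungs that had the same labels, a difference between the groups in the GTPases was not detectable here. Class II genes varied less, with log2 fold changes of 0.19 for Cd74 (SE 0.189) and 0.45 for H2-Aa (SE 0.191), and did not pass either. For none of these lists does this show that the groups were alike. In the TPM as deposited 3 of the 25 TLR and NF-kB genes fell.

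**Figure D4:**
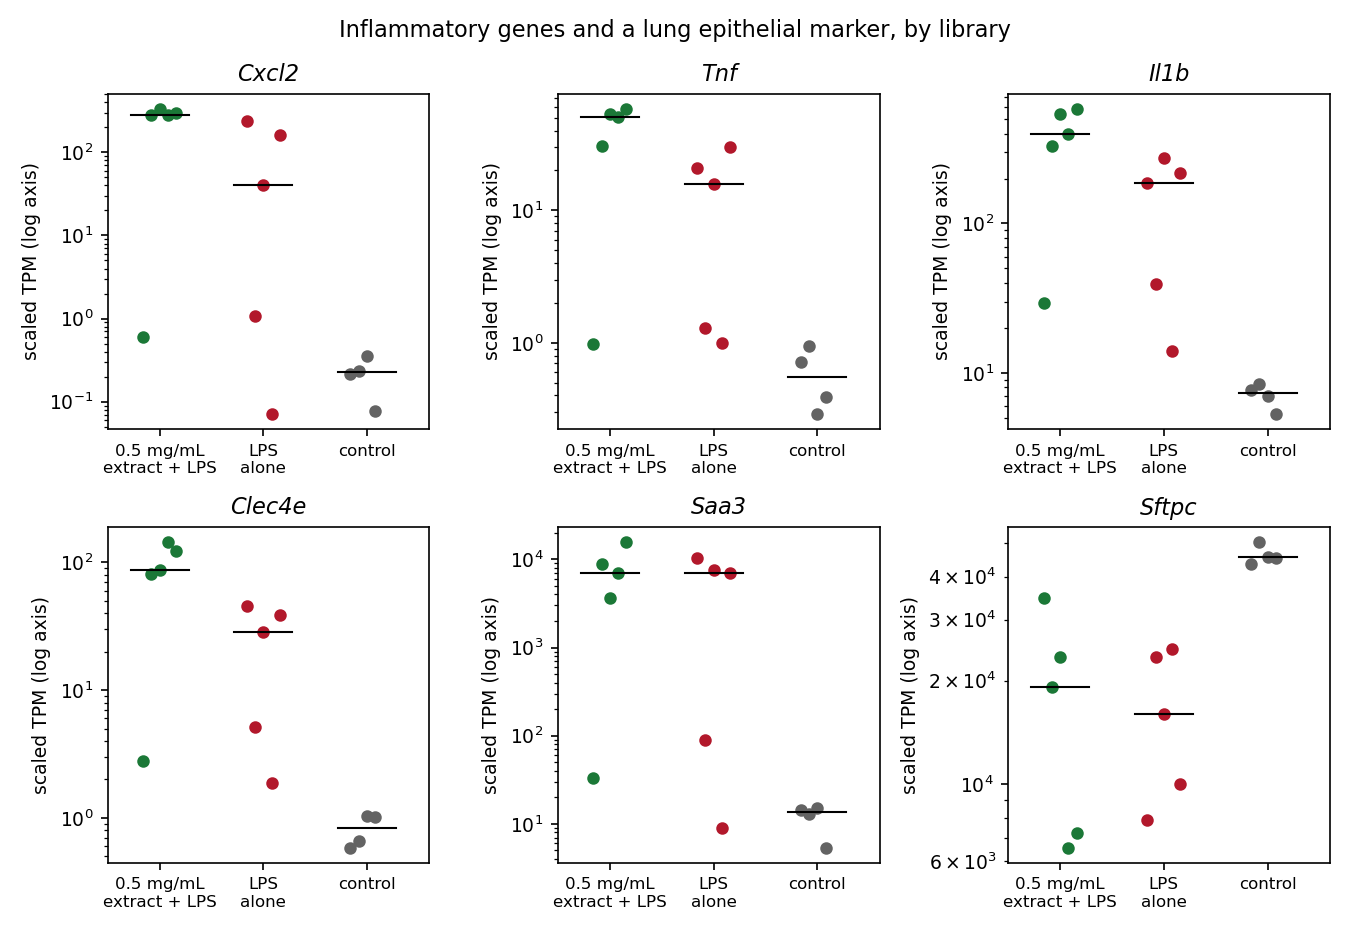
Scaled TPM on log axes of 5 inflammatory genes and the type II cell gene Sftpc in each library of low-dose, LPS and control lungs, with lines at the medians. Low-dose replicate 1 and LPS replicates 2 and 4 lie far below the other low-dose and LPS lungs for Cxcl2 (0.598, 1.08 and 0.0712), so the groups overlap. Replicates 1 and 4 of the mid dose (0.46 and 0.31) and of the high dose (0.41 and 0.39), not drawn, were also low.

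Markers of leukocytes gave few calls, set against the 2.29% of all genes that passed. Neutrophil markers had 0 of 20 members that passed in limma and a median of 0.39, and their summed level was 1756 to 15280 scaled TPM in low-dose lungs and 796 to 18090 in LPS lungs. Alveolar macrophage markers had 0 of 19 that passed and a median of 0.66, with sums of 2158 to 2562 in low-dose lungs and 1117 to 3050 in LPS lungs. Among 20 monocyte and macrophage markers 1 rose. This was Lyz2, the lysozyme of myeloid cells and type II cells, with 6190 to 8756 scaled TPM in low-dose lungs and 4683 to 5883 in LPS lungs. The ranges did not overlap (log2 fold change 0.52, adjusted p = 0.0247, limma). The whole list summed to 8380 to 10170 in low-dose lungs, 5747 to 7328 in LPS lungs and 7553 to 8291 in control lungs. Lyz2 made up most of the low-dose and LPS sums, with means of 7750 and 5385, so these sums largely repeat that gene. The call of Lyz2 was lost on leaving out 6 of the 10 libraries and was not made in the TPM as deposited (adjusted p = 0.135, limma). The part of the macrophage markers in the increases of Clec7a and Retnla was not tested.

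Of 18 C-type lectins, receptors for sugars on myeloid and lymphoid cells, 2 rose, against 1.74% of all genes tested, with a median of 0.64. Beside Clec7a this was Clec2d, a ligand of an inhibitory NK cell receptor, with 184, 182, 198, 191 and 166 scaled TPM in low-dose lungs and 113, 103, 103, 109 and 74.5 in LPS lungs. The groups were apart (log2 fold change 0.88, SE 0.178, limma adjusted p = 0.0169), and the call was lost without LPS replicate 5 or low-dose replicate 3. Clec4n (Dectin-2, log2 fold change 1.96, adjusted p = 0.259), Clec4e (Mincle, 1.80, adjusted p = 0.558) and Clec4d (1.41, adjusted p = 0.573) did not pass, with low-dose replicate 1 and LPS replicates 2 and 4 the lowest of their groups in all 3. Among 22 T and NK cell markers Cd3d, a chain of the T cell receptor complex, rose (0.81, adjusted p = 0.0484, limma), with a call that held only without LPS replicate 2 and was not made in the TPM as deposited (adjusted p = 0.0682). Cd3e of the same complex had 0.16 (adjusted p = 0.761).

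Lists of endothelial, smooth muscle and pericyte, and antioxidant genes each held 1 call, set against the 2.29% of all genes that passed. Robo4, a guidance receptor of endothelium, was the 1 of 21 endothelial markers that fell, with 22.6 to 31.3 scaled TPM in low-dose lungs and 31.6 to 38.5 in LPS lungs (log2 fold change −0.49, limma adjusted p = 0.0448), a call lost on leaving out 8 of the 10 libraries. Cspg4, the NG2 proteoglycan of pericytes, was the 1 of 16 smooth muscle and pericyte genes that fell (−0.57, adjusted p = 0.0467), and its call was lost on leaving out any 1 library. Sod1, the cytosolic superoxide dismutase, was the 1 of 25 NRF2 and antioxidant genes that rose, with 997 to 1221 scaled TPM in low-dose lungs and 721 to 899 in LPS lungs (0.45, adjusted p = 0.0408, limma), a call that held only without LPS replicate 1 and was not made in the TPM as deposited (adjusted p = 0.153). None of the markers of type I cells (13), type II cells (13) or airway cells (15) passed in limma, with medians of −0.01, 0.01 and 0.06. Skeletal muscle transcripts were high in single libraries of both groups, Acta1 with 471 scaled TPM in low-dose replicate 5 and 1830 and 1151 in LPS replicates 1 and 3, against at most 0.588 in the other 7. Without these 3 libraries, a choice made after seeing the data, 149 genes were higher and 22 lower, and 31 ribosomal proteins and 27 respiratory subunits rose.

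**Figure D5:**
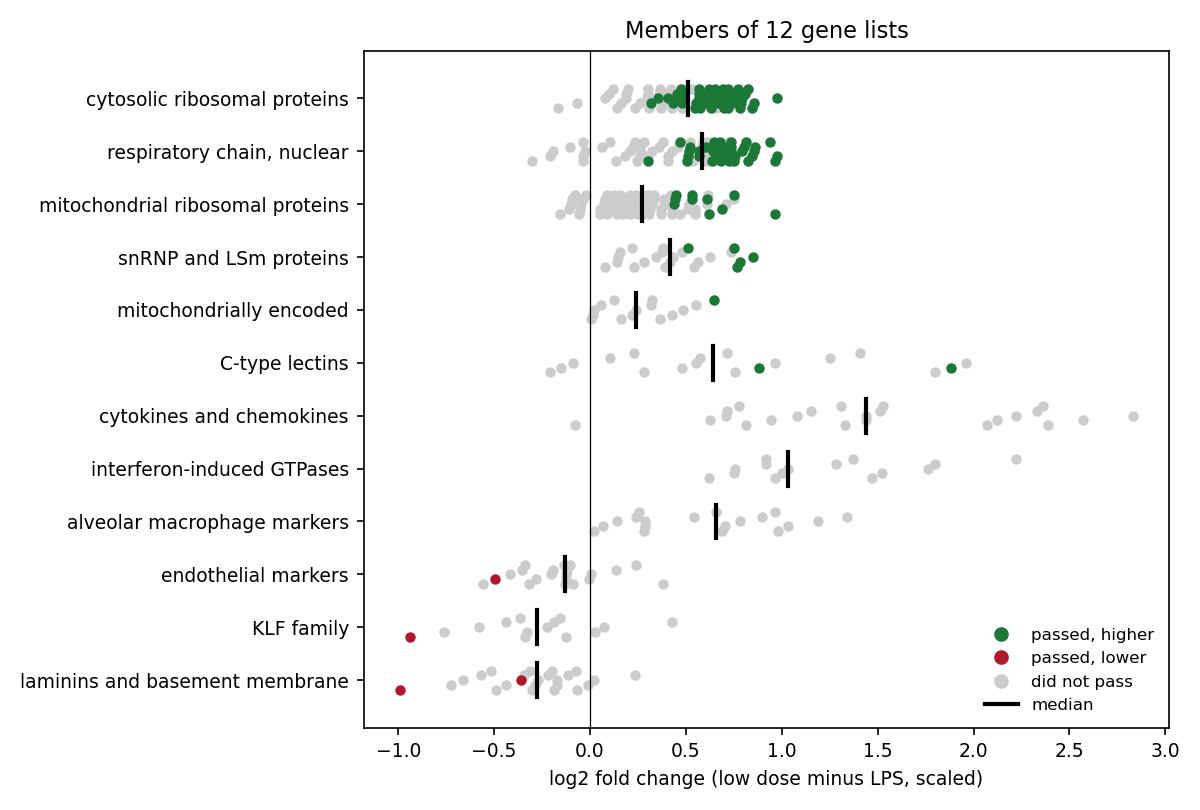
Log2 fold changes (low dose minus LPS, scaled) of the members of 12 gene lists as points, green where a member passed higher and red where it passed lower, with a line at each median. Calls gather in the ribosomal and respiratory lists, while cytokines and chemokines have the largest median of these 12 lists (1.44) and 0 calls.

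For comparison, several of the genes described above also differed between LPS and control lungs, in the other direction. The comparisons share the LPS libraries, so their fold changes are not independent, and values are given side by side. Lama5 was higher in LPS than in control lungs by a log2 fold change of 0.78 (adjusted p = 0.00174), Cox6c lower by −1.20 (adjusted p = 0.000134), Rplp1 by −0.91 (adjusted p = 0.00184) and Mgp by −0.996 (adjusted p = 0.000785, limma). Between low-dose and control lungs the differences were −0.21 for Lama5 (adjusted p = 0.361), −0.23 for Cox6c (adjusted p = 0.351), 0.07 for Rplp1 (adjusted p = 0.806) and 0.01 for Mgp (adjusted p = 0.963, limma), none of which passed. Clec7a and Retnla stood otherwise, with a low-dose level above that of control lungs (log2 fold changes 2.53, adjusted p = 0.00195, and 1.60, adjusted p = 0.00754) and no passed difference between LPS and control lungs (0.65, adjusted p = 0.308, and 0.16, adjusted p = 0.769). Some decreases lay below control lungs in low-dose lungs, namely Foxf1 (−0.69), Lamc1 (−0.36), Cspg4 (−0.55) and Dnah11 (−1.32), which all passed (limma). Between LPS and control lungs these genes did not pass (0.01, −0.002, 0.02 and −0.28). Abcc3 and Bag3 were instead higher in LPS than in control lungs (0.62 and 0.40, both passed). Neither passed between low-dose and control lungs (−0.10 and −0.10). The length slope of control libraries was 0.0128 ± 0.0222 (SD, n = 4).

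The low dose was then set directly against the other doses. Against the mid dose 0 of 17823 genes passed (limma), with 2231 at an unadjusted p under 0.05 and a smallest adjusted p of 0.212. Against the high dose 5 passed, 2 higher (0.0112%) and 3 lower (0.0168%). Lipa, the lysosomal acid lipase, had 44.3 to 50.5 scaled TPM in low-dose lungs, 28.0 ± 6.08 in high-dose lungs (SD, n = 5) and 27.7 to 40.7 in LPS lungs, with a log2 fold change of 0.73 between low and high dose (adjusted p = 0.0374, limma). Shisa3, a regulator of Wnt and FGF receptors in vertebrate embryos, was higher by 0.73 (adjusted p = 0.0349), at 1.23 to 2.22 scaled TPM in low-dose lungs. Wee1, a kinase that delays mitosis and follows the clock, was lower at the low than at the high dose by −0.83 (adjusted p = 0.01), Rpl13a by −0.51 (adjusted p = 0.0279) and the MHC class I gene H2-Q2 by −0.83 (adjusted p = 0.0349). H2-Q2 belongs to a family of near-identical genes, and its level is uncertain.

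Of the dose groups, the mid dose had 0 genes that passed against LPS alone and the high dose 1011 higher (5.67%) and 583 lower (3.27%), so the number of calls did not follow the dose. These comparisons share the LPS libraries. The length slope was lower in low-dose than in mid-dose libraries (0.00261 ± 0.0209 against 0.0807 ± 0.0368, SD, n = 5 each, exact permutation p = 0.0159, adjusted over the 9 comparisons 0.0286). It did not differ detectably from that of high-dose libraries (−0.00516 ± 0.0417, exact permutation p = 0.683). The scaling factors were 0.95 to 1.07 in low-dose libraries and 1.09 to 1.28 in LPS libraries, which did not overlap (exact permutation p = 0.00794, the smallest that 5 against 5 allows, adjusted 0.0286). In the TPM as deposited, where this shift is not removed, all genes tested had a median of −0.20, and 220 genes (1.23%) were higher and 1672 (9.38%) lower.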

How the data were processed

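Whole-lung RNA of 24 mice was sequenced after ribosomal RNA removal, per the labels' protocols. The deposited table holds TPM per gene. HISAT2, StringTie, RSEM, DESeq2 and the GRCm39 build are named in the submitters' processing notes, without versions or roles. TPM hide the depth, so no counting error can be given.

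TPM were divided by median-of-ratios factors over 16472 genes. Genes that reached 1 TPM in 4 libraries or more (17823 of 78298; 21883 have no symbol) entered limma 3.58.1 (R 4.3.3, trend and robust) on log2(scaled TPM + 1), with 1 mean for each of 5 groups and Benjamini-Hochberg adjustment at 0.05. Library measures had two-sided exact permutation tests, and the length slope was chosen with earlier results of these data known. The code was tested on simulated data. Length was removed by lowess (span 0.3) on each library's deviation from the mean library. Principal-transcript lengths were adopted after the longest-transcript result was seen.

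The libraries entered each group by their labels alone. The comparison and the 49 lists (1048 of 1078 symbols tested) were chosen with earlier results of these data known. The genes named are the 12 largest increases and decreases without overlap and with a mean of at least 1 TPM, leaving out predicted genes (Gm, Rik and clone names), genes without a symbol, pseudogenes and antigen receptor segments; the 4 largest increases among symbols ending in -ps; up to 4 passing genes a list or its 2 most abundant members, and those that passed between doses. Others are marked as outside the rule. Same-numbered libraries did not deviate together, so no pairing was used.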

Additional observations from a re-analysis of the deposited data

Results flagged for a closer look

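Single libraries stood apart from the other 4 of their group, by a gap of more than 0.71 of the group's range, in 17 of 226 groups of 5 values (7.52%). Independent normal values would pass this limit in about 1 in 20 groups. Scaled TPM need not be normal and the genes share libraries, so that rate is no measure of chance here. All values are scaled TPM, with the nearest library of the group after each.

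In low-dose replicate 1, Ccl3 had 1.879 (nearest 423.4) and Nfkbia 95.28 (nearest 291.3). In low-dose replicate 4, Gsdmd had 97.15 (nearest 60.92) and Fabp4 308.9 (nearest 110). In low-dose replicate 5, the muscle genes Acta1 and Tnnt3 had 471.2 (nearest 0.3216) and 206.4 (nearest 8.89).

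In LPS replicate 1, Pin4-ps had 3.834 (the others are listed at 0), Pf4 56.76 (nearest 39.86) and Mrps36 48.29 (nearest 37.06). In LPS replicate 2, Dnah11 had 9.532 (nearest 4.636). In LPS replicate 3, S100a9 had 6344 (nearest 1061), Ighm 1673 (nearest 126.3), Sdc1 98.57 (nearest 134.7), Cfd 797.3 (nearest 94.2) and Fabp4 822.9 (nearest 107.5). In LPS replicate 5, Sipa1l3 had 57.81 (nearest 44.63) and Clec2d 74.53 (nearest 102.9).

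The low and the high dose differed by a direct test (limma, adjusted p under 0.05) in Lipa (log2 difference, low minus high, 0.728), Shisa3 (0.727), Wee1 (−0.833), Rpl13a (−0.507) and H2-Q2 (−0.831).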

How the results depend on the processing

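Against 310 increases and 98 decreases, the TPM as deposited gave 220 and 1672, no filter 79 and 8, sample quality weights 610 and 378, calls limited to a log2 size of at least 1 gave 27 and 7, and the longest-transcript length adjustment 48 and 11. Principal-transcript length, alone or with GC content, gave 0 and 0. A fit to both groups alone gave 50 decreases. Leaving out the 3 libraries with the most skeletal muscle RNA, chosen after seeing the data, gave 149 and 22. With the replicate number as a block the counts were 140 and 35, and 0 between low and high dose; the correlations of same-numbered libraries were −0.31, −0.0832, −0.098, −0.329 and 0.0594, so the numbers are not taken as pairs. Between low and mid dose 1 gene passed in the TPM as deposited. Between low and high dose 1 passed in the TPM as deposited and 2 with no filter, against 5. Leaving out 1 library gave 63 to 353 increases, 9 to 101 decreases, 0 to 1 genes between low and mid dose and 0 to 9 between low and high dose. The low-dose minus LPS difference was then −0.103 to −0.0754 in length slope and −0.199 to −0.152 in scaling factor. No named gene that passed changed sign under these settings. Values that did not pass did: in the TPM as deposited the medians became −0.11 for TLR and NF-kB genes, −0.05 for the proteasome, −0.16 for airway, −0.22 for type II cell and −0.21 for NRF2 genes, and Cd3e (−0.04), Ager (−0.10) and Ndufs1 (−0.16) turned negative. With the principal-transcript length adjustment Lama3 (0.02), Lama4 (0.03) and the type I cell median (0.04) turned positive, and the airway (−0.03) and type II cell (−0.06) medians negative. The balance of calls turned too in the TPM as deposited, to more decreases than increases. Single-gene calls were unchanged in 2670 cases, lost in 555 and gained in 12, over all genes named and settings. The cause of these changes was not tested, beyond the smaller samples when libraries are left out. Depth is unknown, so its limit on weak genes cannot be given.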
